A study of Mus musculus with 16 samples.

Results

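The B cells of the mouse colon were taken as the cells that the deposited annotation names Bcell1_IgM or Bcell2_IgM. There were 319 of them, 173 Bcell1_IgM and 146 Bcell2_IgM, among 4835 immune cells and 22717 cells in all. Single-cell RNA-seq (10x Genomics) had been run on cells of the transverse colon from 16 mice, all C57Bl/6J females of 7 weeks at acclimatization, each giving 1 library. The study asked how a colon injured by dextran sulfate sodium (DSS), a polymer that damages the epithelium, responds to SZN-1326-p, which switches on the Wnt pathway through Frizzled receptors. At each of 2 times there were 2 uninjured mice, 3 DSS mice given the control antibody anti-GFP and 3 DSS mice given SZN-1326-p. The uninjured mice received neither DSS nor a protein. The comparison of anti-GFP with uninjured mice, called DSS below, thus holds both DSS and the antibody dose, which cannot be told apart. DSS was at 4% in the drinking water throughout, and either protein was given once at 10 mg/kg on day 4 of DSS. Cells were collected 24 h later (day 5) or 48 h later (day 6). An epithelial fraction and an enzyme digest of the lamina propria were sorted before loading, so shares of cells describe the sorted suspension.

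B cells carry a membrane immunoglobulin whose signal runs through the CD79A and CD79B chains, and they present antigen on MHC class II. Naive follicular B cells bear IgM and IgD together with CD20 (Ms4a1), CD23 (Fcer2a) and CD21 (Cr2), and they recirculate through lymphoid tissue. In the gut they gather in isolated lymphoid follicles and patches of the wall, where germinal centres produce the IgA-secreting plasma cells of the lamina propria.

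The B cells were few in most libraries. At 24 h the 2 uninjured mice held 4 and 2, the anti-GFP mice 2, 6 and 34, and the SZN-1326-p mice 4, 21 and 1. At 48 h the counts were 11 and 10, then 20, 27 and 74, then 53, 22 and 28. All cells of a mouse had a median of 5.06% to 26.1% mitochondrial UMIs (unique molecular identifiers, each counting 1 captured RNA molecule). It was 19.2% to 26.1% in the 4 uninjured mice and at most 11.6% in all but 2 of the 12 DSS mice. The exceptions, at 18.9% and 24.1%, were mouse 2 of the SZN-1326-p arm at 24 h and mouse 3 of that arm at 48 h. Across all libraries 64 barcode sequences occurred more than once. Only 4 B cells had a barcode seen in another library, and no 2 B cells shared one.

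The defining B cell genes were present in both types and near 0 in T cells. Levels are given here as CPM, UMIs per 1000000 non-mitochondrial UMIs of a cell type, from 164710 such UMIs in Bcell1_IgM and 617036 in Bcell2_IgM. Cd79a (chromosome 7, 24897381 to 24902197, plus strand of mm10), the signalling chain of the B cell receptor, stood at 3224 CPM in Bcell1_IgM and 2049 CPM in Bcell2_IgM. In the T cell types TcellCD8_NK and Tcell2 it stood at 1.11 CPM and 0. Ms4a1 (chromosome 19, 11249675 to 11266241, minus strand), which encodes CD20, stood at 1597 and 938 CPM in the B cell types. Fcer2a (chromosome 8, 3681737 to 3694175, minus strand), the low-affinity IgE receptor CD23, stood at 412.8 and 151 CPM. Vpreb3 (chromosome 10, 75943057 to 75949657, plus strand), a protein related to the surrogate light chain, was the one of the 4 chosen markers with the opposite order, at 121 and 348 CPM. The T cell receptor genes Cd3d and Cd3e had no UMI in any B cell, which allows up to 3.84 CPM over both types.

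Because the Bcell2_IgM cells were deeper, each cell was also thinned at random to 600 non-mitochondrial UMIs before the share of cells with a UMI was taken. Cd79a was then detected in 75.1% of Bcell1_IgM cells (95% exact interval 68.0% to 81.4%) and 65.8% of Bcell2_IgM cells (57.5% to 73.4%), against 83.2% and 100% without thinning. Ms4a1 was detected in 52.6% and 37.0% after thinning, and in 64.2% and 88.4% before it. Fcer2a gave 20.8% and 8.22% after thinning, and 27.7% and 39.0% before. For these markers the order of the types therefore turned with depth. Vpreb3 kept its order, with 7.51% (4.06% to 12.5%) and 23.3% (16.7% to 31.0%) after thinning and 9.83% and 60.3% before it. Ebf1, a transcription factor that sets B cell identity, gave 85.5% and 61.6% after thinning. None of these 4 markers was seen in any of 649 thinned T cells (upper bound 0.567%, median 2597 UMIs before thinning), and Ebf1 was seen in 1. All intervals cover counting error only.

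The immunoglobulin genes matched the IgM in the names of both types. Ighm, the IgM heavy chain, or Ighd, the IgD heavy chain, was found in 162 of 173 Bcell1_IgM cells and 142 of 146 Bcell2_IgM cells. Ighm after thinning was detected in 84.4% and 71.9%, against 7.24% of T cells, and Ighd in 43.4% and 32.2%, against 0.308% of T cells. Igha, the IgA heavy chain, had a UMI in 16 cells (9.25%) and 10 cells (6.85%), against 13.9% of T cells. These shares are without thinning, at median UMIs of 1250, 3792 and 2597, so depth enters the comparison. Whether the Igha UMIs of B cells are background was not tested. The IgA plasma cells of the same suspension had Igha in 99.1% of cells. IgG or IgE heavy chains were found in 6 and 9 cells, 3.47% and 6.16%, against 1.08% of T cells. The kappa light chain Igkc was found in 89.6% and 96.6% of cells. Lambda light chains were found in 31 Bcell1_IgM cells (17.9%) and 129 Bcell2_IgM cells (88.4%), against 3.08% of T cells. Lambda UMIs were 137 beside 1449 kappa UMIs in Bcell1_IgM, and 726 beside 3669 in Bcell2_IgM, so kappa made up most of the light chain RNA in each.

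Follicular genes were present in both types, while several defining genes of germinal centre and plasma cells were scarce. Ccr7, a receptor that guides cells into lymphoid tissue, stood at 1081 and 545 CPM, Cxcr5, which guides them into follicles, at 565 and 177, and Cr2 at 522 and 263. Of the germinal centre list, Bcl6, the master repressor of that programme, had 8 and 16 UMIs in all cells of the types together, S1pr2 2 and 6, and Gcsam 0 and 1. Rgs13, a regulator of receptor signals in germinal centres, had 0 and 13 UMIs and Lmo2 7 and 93. Of the plasma cell genes, Sdc1 (CD138) had 5 and 2 UMIs, Prdm1 (the regulator BLIMP-1) 1 and 1, and Jchain (the joining chain of secreted IgA) 10 and 23, or 60.7 and 37.3 CPM against 69189 CPM in IgA plasma cells. Other members of that list were well detected: Mzb1, a secretory chaperone that B-1 and marginal zone B cells also make, had 121 and 340 CPM (2292 in IgA plasma cells), Sec11c 279 and 219, and Irf4 182 and 165. In all, 45 Bcell1_IgM and 99 Bcell2_IgM cells held 2 or more genes of the plasma cell list. Of the list for B-1 and marginal zone B cells, Cd5 had 0 and 2 UMIs and Spn 4 and 0, while Plac8 stood at 322 and 899 CPM and Dtx1 at 103 and 122. Genes of MHC class II were abundant. Cd74, the invariant chain, stood at 21298 and 13306 CPM and H2-Ab1 at 8026 and 3510 CPM.

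The 2 types differed in depth and in mitochondrial RNA. Bcell1_IgM cells had a median of 1250 UMIs, 597 genes and 28.1% mitochondrial UMIs. Bcell2_IgM cells had 3792 UMIs, 3.03 times as many, 1435.5 genes and 7.61% mitochondrial UMIs. Only 4 Bcell1_IgM cells had a mitochondrial share at or under that of the highest Bcell2_IgM cell. Ranges of UMIs met at their edges: 18 Bcell1_IgM cells were above the lowest Bcell2_IgM cell, and 21 Bcell2_IgM cells below the highest Bcell1_IgM cell. Bcell1_IgM had the lowest median UMI count of all 46 cell types. Next came the T cell type Tcell2, with 1296 UMIs and 24.6% mitochondrial, against 4585 UMIs and 5.14% in TcellCD8_NK. Doublets were not called here. 4 Bcell2_IgM cells exceeded 10000 UMIs, and 1 B cell held 2 or more T cell markers. Cells with 2 or more myeloid markers numbered 4 and 4 in Bcell1_IgM and Bcell2_IgM, and those with 2 or more epithelial markers 152 and 130.

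**Figure D1:**
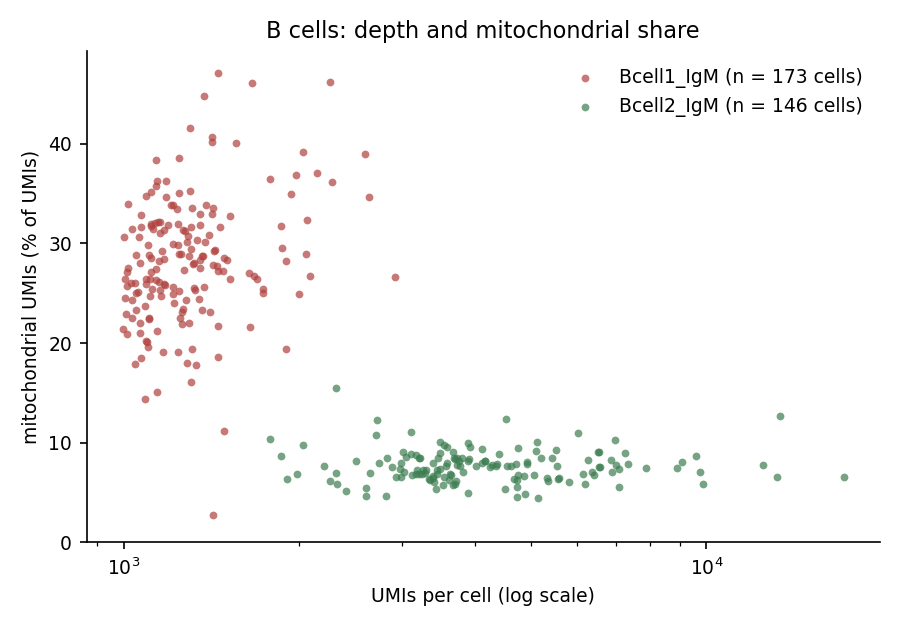
Each point is 1 B cell, with its UMIs on a log axis against the percentage of its UMIs that are mitochondrial. The 173 Bcell1_IgM cells lie at low depth around 28.1% mitochondrial UMIs and the 146 Bcell2_IgM cells at higher depth around 7.61%, with 4 Bcell1_IgM cells in the mitochondrial range of the other type.

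The plot of depth against mitochondrial share shows the 2 types as clouds that hardly overlap on its vertical axis. Depth and mitochondrial share, genes included, were available to the clustering that made the types, so what follows describes the types and tests nothing. The values are normalized UMIs per cell, UMIs scaled by the deposited size factor of each cell to a total near 10000 (median 10050 in Bcell1_IgM and 10930 in Bcell2_IgM). They were averaged within each of 8 DSS mice that held at least 5 cells of each type, and differences are on the log2(mean + 0.1) scale, which understates folds of low genes.

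Of 3373 genes with 0.5 normalized UMIs or more in either type, 317 (9.4%) were higher in Bcell2_IgM in all 8 mice and 65 (1.93%) were lower in all 8. The median difference over all these genes was 0.18. Ribosomal protein genes made up much of the first set, 80 of 84 being higher in every mouse with a median difference of 2.11. The actin-binding gene Tmsb4x stood at 10.0 ± 2.66 (SD, n = 8) normalized UMIs in Bcell1_IgM and 113 ± 17.4 in Bcell2_IgM, and no value of the first type reached the lowest of the second. With it, all 9 genes of a list of small cytosolic proteins, made after the values were seen, were higher in every mouse, with a median of 3.00. Their shared direction is no separate result, since the list was made with the values known.

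The largest differences among the genes chosen by the naming rule were Pkig (4.89), an inhibitor of protein kinase A, Gmfg (4.50), Rac2 (4.46), a GTPase of blood cells, Dazap2 (4.45) and Gngt2 (4.25). Rac2 was 0, 0, 0 and 0 in 4 mice and 0.497 to 1.28 in the other 4 among Bcell1_IgM cells, and 4.29 to 7.40 among Bcell2_IgM cells. Lmo2, a transcriptional cofactor also used in germinal centres, was at 0 in 6 of 8 mice in Bcell1_IgM and at 0.650 to 2.56 in Bcell2_IgM. Ifi27l2a, an interferon-inducible gene, was at 0 in 5 mice and at most 2.90 in Bcell1_IgM, and at 1.11 to 3.98 in Bcell2_IgM.

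Bcell1_IgM had more of the mitochondrial transcripts, of nuclear RNAs and of epithelial genes. 11 of 13 mitochondrial genes were lower in Bcell2_IgM in every mouse (median -1.80). The nuclear RNA Malat1 stood at 512 ± 99.0 (SD, n = 8) normalized UMIs in Bcell1_IgM and 224 ± 25.3 in Bcell2_IgM, with no overlap between mice. Xist, the nuclear RNA of the inactive X, stood at 43.3 ± 21.5 and 18.2 ± 3.17. Over 5 nuclear RNAs, a list made after the values were seen, the median difference was -1.15, with 2 lower in every mouse. Hspa5, the main chaperone of the endoplasmic reticulum, stood at 14.4 ± 5.54 against 5.53 ± 1.85. 8 such chaperones, also listed afterwards, had a median of -1.06, with 3 lower in every mouse.

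Of 11 epithelial markers measured, 8 were lower in Bcell2_IgM in every mouse (median -1.37). The keratin Krt8 stood at 1.30 to 15.3 normalized UMIs in Bcell1_IgM and at 0.382 to 5.28 in Bcell2_IgM, and was lower in the latter in each mouse. Krt19 differed by -2.01, the goblet cell mucin Muc2 by -1.44 and Tff3 by -1.55. Epithelial markers together took 0.514% of the non-mitochondrial UMIs of Bcell1_IgM and 0.131% of those of Bcell2_IgM, against 0.494% in Tcell2 and 0.125% in TcellCD8_NK. The part of RNA from epithelial cells in these differences was not tested.

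B cell identity genes went both ways on this scale, from -1.14 for Fcer2a to 1.94 for Pou2af1, a coactivator of immunoglobulin transcription. Of the 20 on the list, 0 were higher and 2 lower in Bcell2_IgM in every mouse, with a median of -0.20. Cd79a stood at 8.10 to 55.7 normalized UMIs in Bcell1_IgM and at 17.5 to 24.1 in Bcell2_IgM. The latter range lies inside the former. Ebf1 was one of the 2 lower genes, at 17.8 to 52.3 against 13.2 to 19.3, a median difference of -1.06. Vpreb3 was at 0 to 4.31 in Bcell1_IgM and 0.837 to 5.26 in Bcell2_IgM, higher in 7 of 8 mice, with a median difference of 1.84. None of 12 MHC class II genes differed in the same direction in all mice (median -0.24). Klf2, a factor of quiescent recirculating lymphocytes, was higher in Bcell2_IgM in 7 of 8 mice, by a median of 0.83.

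The split into higher and lower genes depended on the scale. Per 10000 non-mitochondrial UMIs, 172 of 3360 nuclear genes were higher and 129 lower in every mouse, where the deposited scale gave 317 and 54 of the same genes. The median of all genes then moved from 0.19 to -0.19. Ribosomal protein genes kept their direction, with 78 of 84 higher (median 1.64), as did the epithelial markers (-1.81). Of the lists made after the values were seen, the 9 small cytosolic proteins (median 2.48) and the nuclear RNAs (-1.61) also kept theirs. B cell identity genes then had a median of -0.64, with 3 lower in every mouse, and MHC class II genes -0.75. With cells thinned to 600 UMIs, 93 genes were higher and 62 lower, 71 of 84 ribosomal protein genes among the higher.

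The same kind of pair existed in T cells, and it was described in the same way over 15 mice. Across 2589 genes, the difference between TcellCD8_NK and Tcell2 and the difference between Bcell2_IgM and Bcell1_IgM had a Pearson r of 0.683, and 75.8% of genes had the same sign. Without mitochondrial and ribosomal protein genes r was 0.650 over 2493 genes. The points share libraries and a low-depth against a high-depth type on each axis, and genes are not independent replicates, so no p is given.

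**Figure D2:**
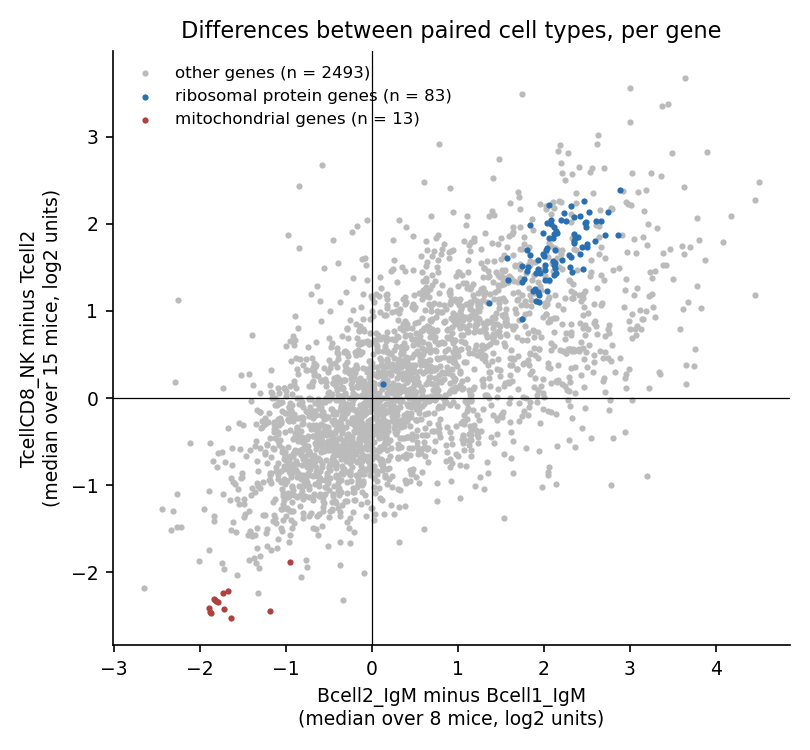
Each point is 1 of 2589 genes, with the median difference between the B cell types over 8 mice on the horizontal axis and that between the T cell types over 15 mice on the vertical axis, both in log2 units. Ribosomal protein genes lie in the upper right and mitochondrial genes in the lower left, and r over all genes is 0.683.

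The plot of the paired differences has ribosomal protein genes at the upper right and mitochondrial genes at the lower left on both axes. In both lineages the deeper type was the one with more ribosomal protein RNA: 35.0% of non-mitochondrial UMIs in Bcell2_IgM against 9.06% in Bcell1_IgM, and 26.4% in TcellCD8_NK against 8.05% in Tcell2.

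Neither DSS nor SZN-1326-p gave a difference in the B cell share of immune cells beyond the spread between mice. The share was 4.60% and 1.60% in the uninjured mice at 24 h, 0.781%, 1.46% and 10.8% in the anti-GFP mice and 0.995%, 6.44% and 0.377% in the SZN-1326-p mice. At 48 h it was 9.02% and 6.06%, then 4.84%, 6.04% and 14.6%, then 14.2%, 7.94% and 8.16%. At each time the ranges of the 3 arms overlapped, and 1 mouse of the anti-GFP arm stood well above the other 2. On the log2 scale, with 0.5 cell added to each count, anti-GFP minus uninjured was -0.16 (4 and 6 mice, two-sided exact permutation within time p = 0.85, smallest possible 0.01). SZN-1326-p minus anti-GFP was -0.15 (6 and 6 mice, exact permutation p = 0.785, smallest possible 0.005). Adjusted over the 4 share tests of this design both became 0.89.

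Against all cells, the B cell share was 0.437% ± 0.298 (SD, n = 4) in uninjured mice and 2.68% ± 2.83 (SD, n = 6) in anti-GFP mice. That is a difference of 1.99 on the log2 scale with an exact permutation p of 0.05. Immune cells numbered 87 to 165 per uninjured mouse and 256 to 507 per anti-GFP mouse, and fewer other cells cannot be told apart from more B cells.

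The mix of the 2 types did not differ beyond the spread between mice either. Bcell2_IgM made up 55.2% ± 48.2 (SD, n = 4) of B cells in uninjured mice, 41.3% ± 22.4 (n = 6) in anti-GFP mice and 56.6% ± 33.8 (n = 6) in SZN-1326-p mice. The log2 difference was -0.10 with DSS (exact permutation p = 0.89, adjusted 0.89) and 0.32 with SZN-1326-p (exact permutation p = 0.625, adjusted 0.89). In 4 of the 24 h libraries it was 0% or 100% of at most 4 cells. At 48 h, Bcell2_IgM cells were 3.39%, 3.13% and 1.78% of immune cells with anti-GFP and 8.29%, 3.61% and 6.41% with SZN-1326-p. These 3 and 3 mice did not overlap, a 2.14-fold difference, and the exact permutation p was 0.1, the smallest that 3 against 3 mice allow. The 2 uninjured mice at 48 h, at 8.20% and 1.82%, spanned nearly the whole range of both arms. At 24 h the order was reversed (0.622-fold), and the difference between the times had an exact permutation p of 0.35. Median UMIs of the Bcell2_IgM cells at 48 h were 4510, 5717.5 and 6252 with anti-GFP and 3894, 4174.5 and 2730.5 with SZN-1326-p. Depth, which separates the types, thus also separated these arms, and its part in the shares was not tested.

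The mean share of B cells among immune cells was higher on the later day in each of the 3 arms, though no arm alone had enough mice to pass the test. This comparison was chosen after the values were seen. The fold of 48 h over 24 h was 2.41 in uninjured mice (exact permutation p = 0.333), 2.98 with anti-GFP (exact permutation p = 0.3) and 6.14 with SZN-1326-p (exact permutation p = 0.1). The smallest exact permutation p that 1 arm allows is 0.333 for the uninjured mice and 0.1 for each DSS arm. Over the 3 arms together the fold was 3.54 (8 and 8 mice, two-sided exact permutation within arm p = 0.0117, adjusted 0.0467 over 4 such tests). For the T cell share of immune cells the same comparison gave 1.2-fold (exact permutation p = 0.528). The B cell share of B and T cells was 2.33-fold higher (exact permutation p = 0.045, adjusted 0.09). The DSS and SZN-1326-p differences did not change between the times beyond the spread between mice (0.31, exact permutation p = 0.85, and 1.04, exact permutation p = 0.485).

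**Figure D3:**
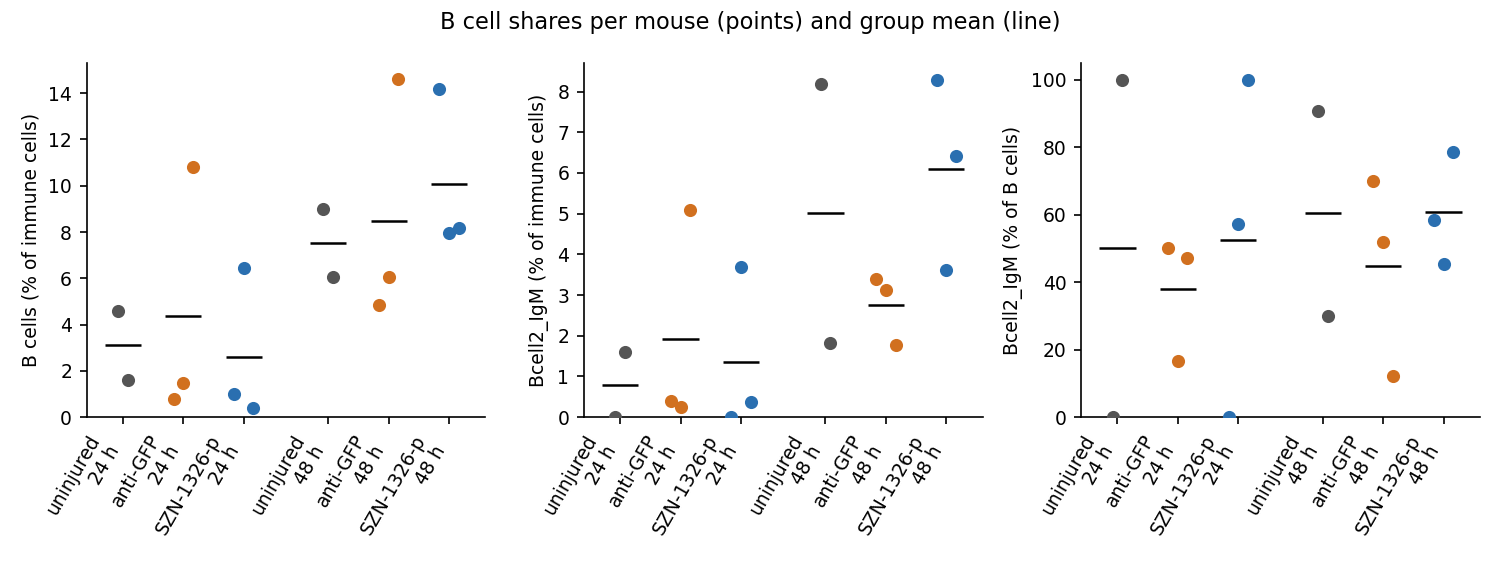
Points are mice and lines are group means, for B cells as a percentage of immune cells, Bcell2_IgM cells as a percentage of immune cells, and Bcell2_IgM cells as a percentage of B cells. B cells reached 4.84% to 14.6% of immune cells in the 8 mice at 48 h, and 0.377% to 10.8% at 24 h.

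The plots of shares show that 6 of the 8 mice at 24 h had under 5% B cells, the exceptions being anti-GFP mouse 3 and SZN-1326-p mouse 2. Those 2 mice were also the only 24 h libraries with 10 B cells or more. For this reason genes could be compared between arms at 48 h alone. There the B cells held 59823 UMIs in the 2 uninjured mice (21 cells), 339359 in the 3 anti-GFP mice (121 cells) and 287307 in the 3 SZN-1326-p mice (103 cells). The test was limma on log2(mean normalized UMIs per cell + 0.1) of each mouse, over 7314 genes with a mean of at least 0.1, with a gene called at a Benjamini-Hochberg adjusted p of at most 0.05. All 8 mice of 48 h shared 1 estimate of the spread. The 2 deep ones of 24 h were in the fit, but each was alone in its group and added nothing to that estimate.

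With DSS at 48 h, limma called several absorptive epithelial transcripts as lower in B cell RNA, with Reg3b, Il4ra and Socs3 among the genes called higher. limma called 48 genes between anti-GFP and uninjured mice (0.656% of those tested), 41 higher with DSS (0.561%) and 7 lower (0.0957%). The higher calls rest on low counts in the uninjured mice: 23 of the 41 genes had no UMI there, and 40 had at most 5. The filter took the mean over all mice of the fit, and most of those were DSS mice. These 23 genes thus passed it on DSS mice alone, while genes seen only in uninjured mice passed less easily. The numbers of higher and lower genes can therefore not be compared with each other. limma's voom on the summed UMIs called 0 of the 41 (37 had an unadjusted p under 0.05) and 4 of the 7, among its 11 calls in all (0.15%). In Bcell2_IgM cells alone, with 3 or more per mouse, all 41 were higher by mean and 7 were called, where 0.468% of all genes were called. With 10 or more per mouse 0.466% were called, but on 1 uninjured and 2 anti-GFP mice. Fitted without the SZN-1326-p and 24 h mice, 1 gene was called in all. The count of 48 became 692 and 100 without uninjured mouse 1 or 2, and 7, 9 and 6 without anti-GFP mouse 1, 2 or 3.

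Il4ra (chromosome 7, 125552120 to 125579474, plus strand), the receptor chain through which IL-4 acts on B cells, was at 0.213 and 0 normalized UMIs in the uninjured mice. It was at 2.09, 1.95 and 1.72 with anti-GFP and 1.34, 1.76 and 1.37 with SZN-1326-p, so all DSS mice lay above both uninjured mice. Anti-GFP mice lay wholly above the uninjured mice in 17.6% of all genes, and wholly below in 9.79%. Il4ra rose by 3.51 ± 0.65 (SE) on the log2 scale (limma, adjusted p = 0.0016) in anti-GFP mice. It rests on 1 UMI against 45, a ratio of 7.93 per UMI of the B cells (95% exact counting interval 1.35 to 320.2). The change was 4.33 without uninjured mouse 1 and 2.69 without uninjured mouse 2, and the call was lost in 5 of 13 other settings, voom among them. In T cells of the same mice, Il4ra was at 0.510 and 0.664 against 1.80, 1.45 and 1.95, also without overlap. In epithelial cells of these mice it was higher by a mean of 1.11 on the log2 scale. The part of RNA from other cells in this call was not tested.

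The B cell markers Cd79a, Ms4a1, Fcer2a and Vpreb3 did not pass. Cd79a was at 28.7 and 28.4 normalized UMIs in uninjured mice and 31.0, 20.6 and 20.2 with anti-GFP, and Ms4a1 at 4.92 and 9.08 against 9.56, 9.54 and 11.1. Fcer2a was at 2.74 and 3.11 against 2.91, 1.11 and 2.71, and Vpreb3 at 3.67 and 0.35 against 3.66, 3.42 and 1.35. The values of Cd79a, Fcer2a and Vpreb3 overlapped between the arms, while Ms4a1 was lower in both uninjured mice than in every anti-GFP mouse.

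**Figure D4:**
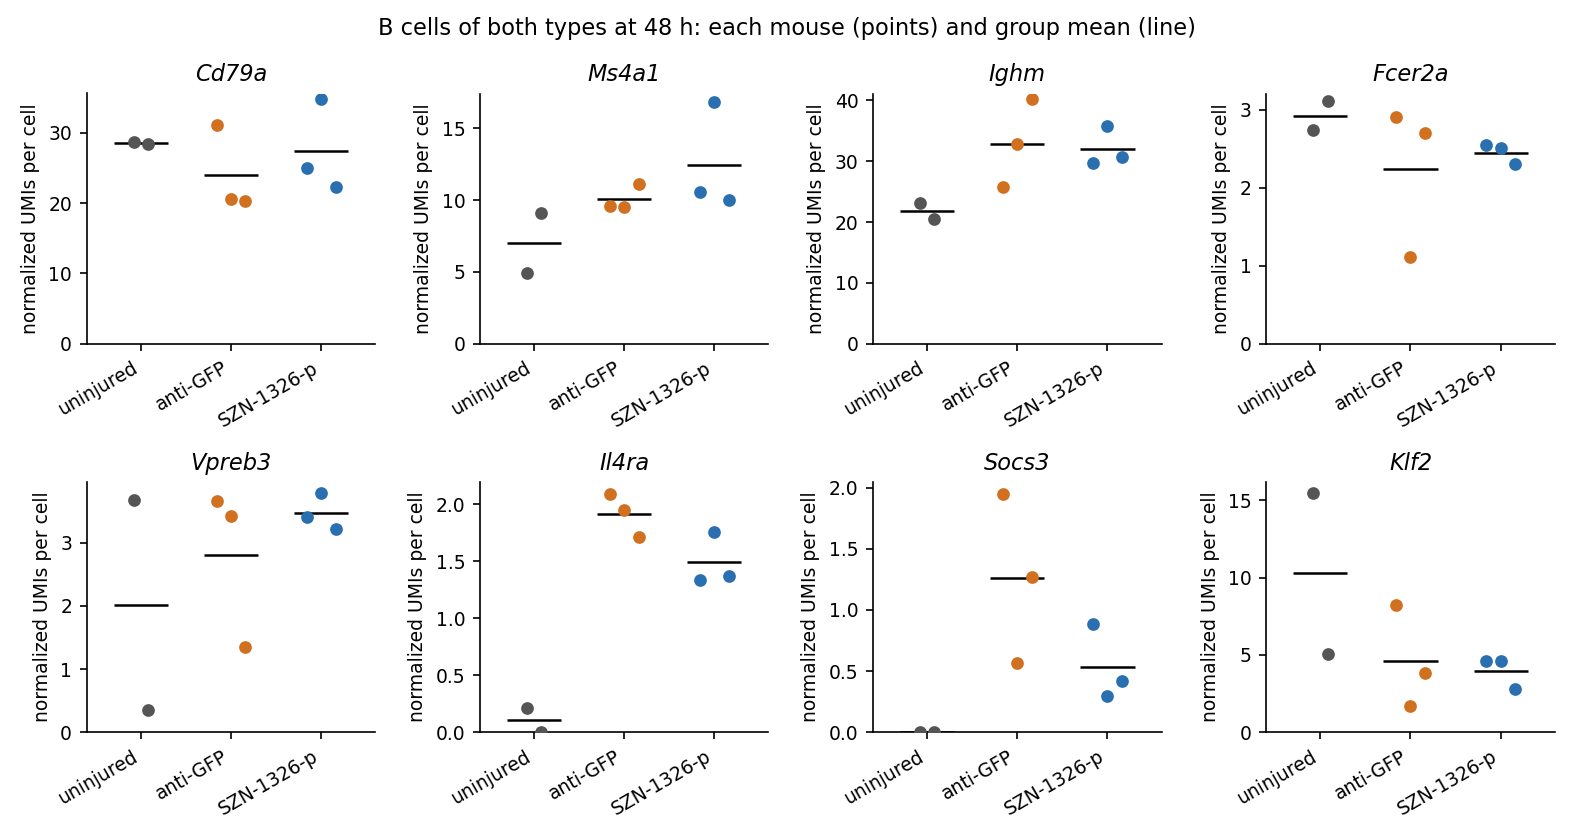
Normalized UMIs per cell of 8 genes in B cells of both types at 48 h, with 1 point per mouse and a line at the group mean. Cd79a, Fcer2a and Vpreb3 overlap between uninjured and anti-GFP mice. Ms4a1, Ighm, Il4ra and Socs3 are lower in both uninjured mice than in every anti-GFP mouse. Of these, Ms4a1 and Ighm were not called.

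The panel of B cell genes at 48 h places Il4ra and Socs3 beside the markers. The 20 identity genes had a median change of 0.57 with DSS, where the median of all 7314 genes was 0.24. Of 20 B cell receptor signalling genes 0 were called by limma and 5 had an unadjusted p under 0.05, all higher, beside 9.2% of all genes higher at that level. They were Cd22, Prkcb, Bcl10, Dapp1 and Inpp5d, and the list's median was 0.84. Of 12 genes of MHC class I presentation 0 were called by limma, 4 were higher at an unadjusted p under 0.05 (Psme2, Tap1, Tapbp and Tap2), and the median was 0.87. The 19 interferon response genes tested had a median of 1.03, with Irf1 at 2.35 (limma, adjusted p = 0.22) and Ly6a at 1.24 (limma, adjusted p = 0.27). The 16 follicular genes had 1 call, Il4ra, and a median of 0.82. Klf2 was at 15.5 and 5.05 in uninjured mice and 8.23, 1.71 and 3.82 with anti-GFP, a change of -1.20 with an adjusted p of 0.30 in limma. No gene of MHC class II (12 tested, median 0.17, 2 with an unadjusted p under 0.05) or of the plasma cell list (11 tested, median -0.42, 2 with an unadjusted p under 0.05) was called by limma. Of these lists, and of B cell receptor signalling and MHC class I, voom called no gene. Of 7 germinal centre genes tested, limma called 0 (1 with an unadjusted p under 0.05) and voom called 2 as lower, Fas, a death receptor, and Basp1.

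Among the 10 genes named by size of change, Reg3b and Reg3g, antimicrobial lectins of the gut epithelium, were at 0 in both uninjured mice. Reg3b was at 0.447, 5.90 and 3.81 normalized UMIs with anti-GFP, and its UMIs were 4.88-fold above what 3 UMIs over the uninjured group would be. Its call was lost without uninjured mouse 1 (limma, adjusted p = 0.098). The other named genes were Snx29, Ssr1, Ugcg, Strn3, Dhx15, Abhd17b, Ttc19 and Socs3, each with no UMI in the uninjured mice and 33 to 43 UMIs in the anti-GFP mice. Socs3, a feedback inhibitor of cytokine signalling, was at 1.95, 0.567 and 1.27 with anti-GFP, 2.35-fold above 3 UMIs in the same way. It was not called without anti-GFP mouse 1, 2 or 3 (limma, adjusted p 0.21, 0.058 and 0.23), and the call was lost in 8 of 13 other settings. In uninjured and anti-GFP mice, Socs3 had means of 0.118 and 0.712 in epithelial cells, and of 0.906 and 0.755 in T cells. Snx29, with 36 UMIs, was 2.12-fold above 3 UMIs, but not called without anti-GFP mouse 1 (limma, adjusted p = 0.089). These 3 folds leave out the counting error of the anti-GFP UMIs and the spread between mice. Of the 41 higher genes, 31 were also higher by mean in T cells, 16 of them without overlap between mice. Of all 7314 genes, 51% were higher by mean in T cells and 14% without overlap.

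Of the 7 genes that fell, Fabp2, Phgr1, Mptx1, Car2 and Lgals3 are known from absorptive epithelium. Fabp2, a fatty acid binding protein of enterocytes, was at 1.43 and 4.70 in B cells of uninjured mice and at 0, 0 and 0.0274 with anti-GFP. Fabp2 fell by 4.64 ± 0.83 (SE) on the log2 scale (limma, adjusted p = 0.0016), on 8 UMIs against 1, a ratio of 45.4 (95% exact counting interval 6.08 to 2014). The change was -5.47 without uninjured mouse 1, -3.82 without uninjured mouse 2 and -0.81, not called, in Bcell2_IgM alone with 3 or more cells per mouse. In T cells it went from 1.41 ± 1.05 (SD, n = 2) to 0.295 ± 0.266 (n = 3), and in epithelial cells from 20.7 ± 0.33 to 3.17 ± 0.57. Phgr1 went from 6.58 ± 4.91 to 0.898 ± 0.702 in B cells (limma, adjusted p = 0.017, and not called without uninjured mouse 2, at -2.15, or anti-GFP mouse 2, at -2.03), from 3.57 ± 2.59 to 0.178 ± 0.10 in T cells and from 91.3 ± 13.2 to 21.8 ± 10.2 in epithelial cells. Reg3b followed the same pattern upward, at 0 and 3.49 ± 3.01 in T cells and 1.52 ± 1.51 and 58.3 ± 33.6 in epithelial cells. In these 3 genes B cells, T cells and epithelial cells of the same libraries differed in the same direction.

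Sh3bp4 and Mrps31, the remaining genes that fell, rest on 3 and 4 UMIs in uninjured mice against 0, and no fold is given. Of 12 epithelial markers 1 was called lower with DSS, Phgr1, and 5 had an unadjusted p under 0.05, all lower, beside 4.21% of all genes, with a list median of -0.96. Their summed share of the non-mitochondrial UMIs of B cells at 48 h was 0.161% and 0.585% in uninjured mice, 0.0730%, 0.138% and 0.218% with anti-GFP and 0.160%, 0.157% and 0.312% with SZN-1326-p. Their part in the calls was not tested. Jchain, of the plasma cell list, was at 0.897 ± 0.381 and 0.148 ± 0.159 (limma, adjusted p = 0.30).

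**Figure D5:**
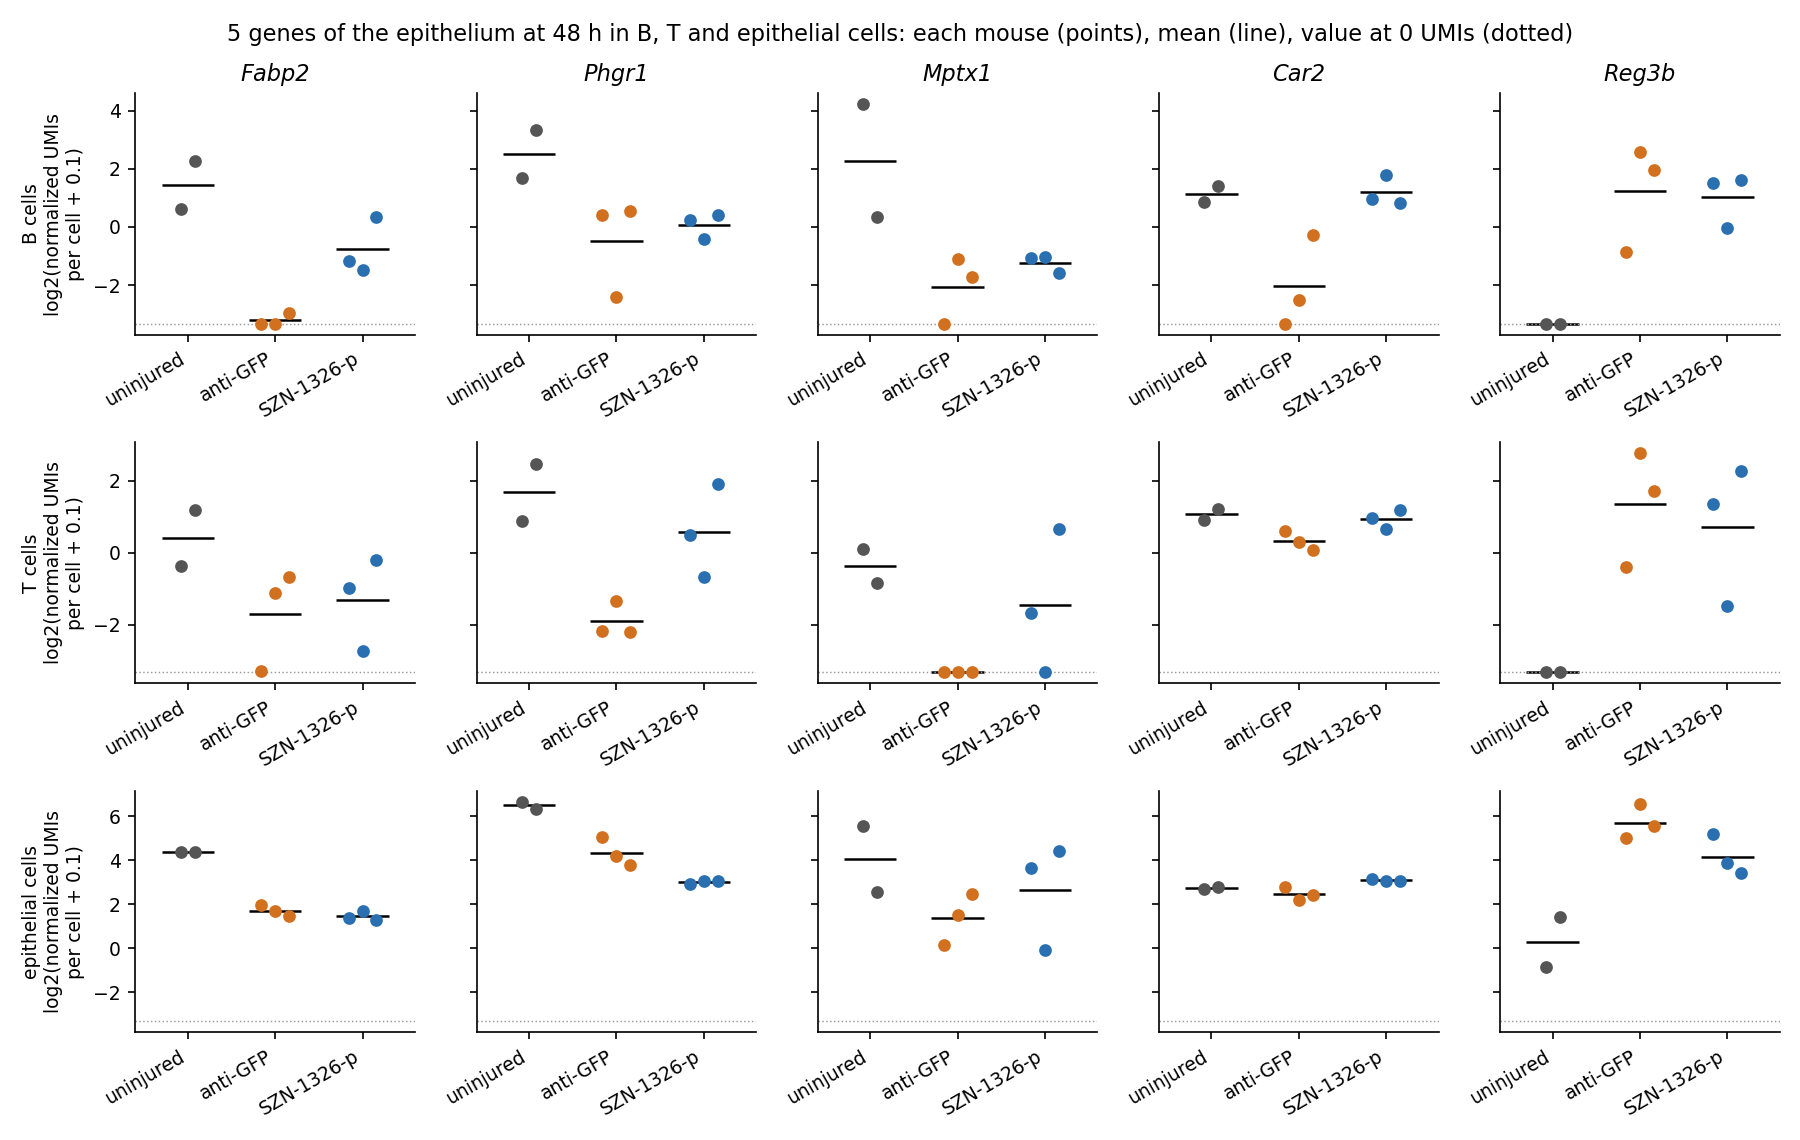
Fabp2, Phgr1, Mptx1, Car2 and Reg3b (columns) in B cells, T cells and epithelial cells (rows) at 48 h, as log2(normalized UMIs per cell + 0.1), with points for mice, lines for means and a dotted line at 0 UMIs. Fabp2, Phgr1 and Mptx1 are lower, and Reg3b higher, by mean in anti-GFP than in uninjured mice in all 3 kinds of cells.

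The panels of epithelial genes also show Car2, the only gene called with SZN-1326-p at 48 h, which is 0.0137% of the 7314 tested. Car2 (chromosome 3, 14886273 to 14900770, plus strand) encodes carbonic anhydrase 2, an enzyme of surface colonocytes. In B cells it was at 0, 0.0769 and 0.735 normalized UMIs with anti-GFP and 1.84, 3.34 and 1.69 with SZN-1326-p. The arms did not overlap, as in 7.38% of all genes with SZN-1326-p higher and 5.58% lower, and the uninjured mice, at 1.70 and 2.53, lay within the SZN-1326-p range. Car2 rose by 3.22 ± 0.64 (SE) on the log2 scale (limma, adjusted p = 0.034), on 12 UMIs against 39, a ratio of 3.84 (1.97 to 8.05). In T cells Car2 was at 1.17 ± 0.245 (SD, n = 3) and 1.82 ± 0.337 (n = 3), and in epithelial cells at 5.51 ± 1.16 and 8.44 ± 0.323. The call was kept in 5 of 16 other settings and was lost with voom, with Bcell2_IgM cells of 3 or more per mouse and on leaving out each of the 6 mice except anti-GFP mouse 3 (log2 change 2.57 to 4.10). With 10 or more Bcell2_IgM cells per mouse, 4 genes were called (0.0565%), Car2 among them.

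No B cell list had a gene called with SZN-1326-p. Of 20 identity genes 13 were higher by mean and 7 lower, with a median change of 0.12 beside 0.01 for all genes, and none had an unadjusted p under 0.05 in limma. Cd79a was at 25, 34.8 and 22.3 and Ms4a1 at 10.6, 16.8 and 10.0, values that overlap those with anti-GFP. Of 18 activation genes 0 were called by limma and 4 were higher at an unadjusted p under 0.05, beside 2.31% of all genes. Egr3, an immediate early gene of receptor signalling, was at 1.05, 0.553 and 1.21 with anti-GFP and 2.66, 3.39 and 1.24 with SZN-1326-p. Nr4a1, another such gene, was at 0.566, 1.66 and 3.15 and at 2.86, 3.89 and 2.11, with the uninjured mice at 4.71 and 5.27. The others were Nfkbid and Il4i1. Each had an adjusted p of 1 in limma.

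The 5 genes with the smallest p values among those higher but not called were Dbi, Slc25a5, Fabp2, Wfdc2 and Cyba. Cyba, a subunit of the phagocyte oxidase also present in B cells, had a mean of 4.11 ± 0.982 (SD, n = 3) with anti-GFP and 10.7 ± 3.00 (n = 3) with SZN-1326-p. Dbi had 0.764 ± 0.373 and 2.78 ± 0.840. On the lower side these were Sik1, Ddx6, Parp14, Smg9 and Zcchc9, with Sik1 at 2.21 ± 0.755 and 0.697 ± 0.687. All 85 ribosomal protein genes tested were higher by mean, with a median change of 0.69, 0 called and 8 with an unadjusted p under 0.05 in limma. Bcell2_IgM, the type richer in ribosomal protein RNA, made up 70.0%, 51.9% and 12.2% of B cells with anti-GFP and 58.5%, 45.5% and 78.6% with SZN-1326-p in the same mice. The part of this mix in the ribosomal protein genes was not tested. With DSS, 81 of the 85 were lower by mean (median -0.50), beside 90.9% and 30.0% Bcell2_IgM in the uninjured mice.

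Wnt receptors and targets, the pathway that SZN-1326-p acts on, were mostly not seen in B cells. Of the 26 genes on the list, 8 passed the filter at 48 h. Axin2, the feedback target of the pathway, Lgr5, Lef1, Tcf7 and the co-receptor Lrp5 had no UMI in the 319 B cells, a count that allows up to 3.84 CPM. T cells of the same suspension had Tcf7 at 147 CPM in TcellCD8_NK and 172 CPM in Tcell2. Fzd5 had 7 UMIs in Bcell1_IgM and 2 in Bcell2_IgM, Lrp6, the other co-receptor, 15 and 18, and Ctnnb1, beta-catenin, 46 and 69. Ctnnb1 at 48 h was at a mean of 1.05 ± 1.05 with anti-GFP and 1.44 ± 0.681 with SZN-1326-p, and Myc at 0.919 ± 0.441 and 1.21 ± 1.21. For SZN-1326-p, limma called 0 of the 8, none had an unadjusted p under 0.05, and the median change was -0.10. For DSS, limma called 0 of the 8 and 2 had an unadjusted p under 0.05, Apc higher and Tcf7l2 lower, and voom called none.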

How the data were processed

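Per the submitters' processing notes, reads were counted with Cell Ranger 3.0.2 on mm10. The deposited values were log2 of 1 plus UMIs over a size factor. After undoing the log2, all 60867816 entries (100%) were whole multiples of their cell's smallest step (tolerance 1e-06), so UMIs were recovered. The authors' deposited annotation gave each cell text labels, a unit other than numbers, and its name SWAP was read as SZN-1326-p. The members and gene lists were chosen with earlier results of these data known. The mouse was the replicate.

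Shares were log2 of (cells + 0.5) over (total + 1), tested by exact permutation (Python 3.11.15, scipy 1.17.1). Genes were tested with limma 3.58.1 (trend, robust) in R 4.3.3, in mice with at least 10 B cells (5 residual degrees of freedom). The DSS comparison at 48 h alone was added after the files were seen. Named genes were up to 10 per direction by size of change among calls that reached 0.3 normalized UMIs in the higher group, without gene models, ribosomal protein, mitochondrial, haemoglobin or immunoglobulin variable genes, then up to 5 by smallest p, plus list members. For the types, up to 15 per side were named. The tests were run on simulated data first. Results for some genes are not reported here. Coordinates are from GENCODE vM21. Alternatives were other filters, pseudocounts, cell minimums, voom, single types, left-out mice and other denominators.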

Additional observations from a re-analysis of the deposited data

Results flagged for a closer look

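In 3 of 34 genes examined over 8 mice, 1 mouse lay far from the others, where chance gives about 1 in 20. All 3 were differences between Bcell2_IgM and Bcell1_IgM over 8 mice, on the log2 scale. Gmfg, which was higher in Bcell2_IgM by a median of 4.50, differed by 0.63 in SZN-1326-p mouse 2 at 48 h, where the next mouse had 2.82. Krt19, a keratin of the epithelium, differed by -3.72 in anti-GFP mouse 1 at 48 h, beside -2.12 in the next mouse and a median of -2.01. Gpx2, a glutathione peroxidase of the gut epithelium, differed by -4.33 in the same mouse, beside -1.90 in the next and a median of -1.57. That mouse had 6 Bcell1_IgM and 14 Bcell2_IgM cells. The naming rule took only genes with the same sign in all 8 mice, so the shared sign in these 3 genes was set in advance.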

How the results depend on the processing

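The B cell share with DSS turned from -0.16 to 1.99 (exact permutation p = 0.05, not adjusted) as a share of all cells, to 0.23 as a share of B and T cells, and to 0.32 without the library of the highest mitochondrial share at each time. Leaving out each mouse gave -0.69 to 0.19 for this share, -0.66 to 0.37 for SZN-1326-p, -0.87 to 0.66 for the Bcell2_IgM share with DSS, -0.05 to 0.78 for that share with SZN-1326-p, and 1.57 to 2.17 for 48 h against 24 h (exact permutation p at most 0.0225). Besides these extremes, the sign turned for the B cell share with DSS without uninjured mouse 1 (0.18), anti-GFP mouse 1 (0.19) or anti-GFP mouse 2 at 24 h (0.013). With SZN-1326-p it turned without anti-GFP mouse 3 (0.37) or SZN-1326-p mouse 3 at 24 h (0.22) or anti-GFP mouse 3 at 48 h (0.083). The Bcell2_IgM share with DSS turned without uninjured mouse 2 (0.66) or anti-GFP mouse 2 at 24 h (0.092), and without uninjured mouse 1 (0.26) or anti-GFP mouse 3 at 48 h (0.27). That share with SZN-1326-p turned without anti-GFP mouse 3 at 48 h (-0.049). None of the differences in the last 4 sentences passed the test.

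Same-numbered mice did not deviate together (correlations -0.59 to 0.46), so the numbers do not pair them. With the replicate number as a block, the Bcell2_IgM share with DSS was 0.18, the B cell share -0.92 with DSS and -0.15 with SZN-1326-p, and 32 genes were called with DSS and 1 with SZN-1326-p.

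The 48 DSS calls became 0 without the filter (1120 with an unadjusted p under 0.05 in limma), 20 with a pseudocount of 0.01, 11 with voom, 23 with at least 5 B cells per mouse and 1 with only the groups compared. Leaving out a mouse gave 6 to 692: 692 and 100 without uninjured mouse 1 or 2, and 7, 9 and 6 without anti-GFP mouse 1, 2 or 3. The 1 SZN-1326-p call became 0 without the filter (409 with an unadjusted p under 0.05), with the pseudocount of 0.01, with voom (542), with at least 5 B cells, in Bcell1_IgM alone, in Bcell2_IgM alone with at least 3 cells per mouse (245), and 0 to 1 on leaving out a mouse. It became 4 in Bcell2_IgM alone with the minimum of 10, on 2 anti-GFP mice. The causes were not tested. None of the called genes that are named changed direction in a setting that was run.

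The genes of the types went from 317 higher and 54 lower to 172 and 129 per 10000 non-mitochondrial UMIs, to 93 and 62 with thinning, and to 430 and 136 in the 6 mice with at least 9 cells of each type. These settings were chosen after seeing the data.

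Genes at 24 h, over both times and between the times were not tested, since too few mice had 10 B cells. DSS with at least 20 cells per mouse or in Bcell1_IgM alone was not run for the same reason. The 21 B cells of the uninjured mice at 48 h limit every DSS result.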

Other observations

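Values outside the comparisons of the report came from the 24 h B cells and from Bcell2_IgM alone. At 24 h the B cells of anti-GFP mouse 3 (34 cells) and SZN-1326-p mouse 2 (21 cells) held 110300 and 56435 UMIs, and the other 6 mice together held 19 B cells. In Bcell2_IgM cells of mice with at least 10, which left 2 mice of the anti-GFP arm and 3 of the other arm, limma called Nr4a1, Krt8, Gpx2 and Car2 higher at 48 h with SZN-1326-p. These are an immediate early gene and 3 genes of the gut epithelium, chosen for naming after their values were seen.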
